A study of Mus musculus with 7 samples.

Results

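The SMC (structural maintenance of chromosomes) gene family was examined in mouse neural stem cells (NSCs) with and without Smchd1. The family was taken as 8 named genes, Smchd1, Smc1a, Smc1b, Smc2, Smc3, Smc4, Smc5 and Smc6, out of 55335 genes in the files. All 8 were found by identifier in the Gencode mouse annotation of GRCm38, with the version of the identifier ignored. Long-read counts of polyadenylated RNA were available from 4 wild-type (WT) samples and 3 samples of genotype Smchd1MommeD1, which are called Smchd1-null. All 7 are of strain FVB/N and were cultured in proliferation medium with EGF and bFGF, and no treatment separated them. MommeD1 is a germline mutation of the Smchd1 gene itself, so it is not limited to 1 cell type. Age and sex of the animals, and whether each sample came from a separate animal, are not given in the sources used here, so the p-values measure the spread between these samples. The comparison asked whether the canonical SMC genes change in transcript level when Smchd1 is lost.

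SMC proteins are long coiled-coil ATPases that fold back at a hinge and work in pairs, closed into a ring by a kleisin subunit. Smc1a and Smc3 form the core of cohesin, which holds sister chromatids together and extrudes chromatin loops. Smc2 and Smc4 form the core of both condensins, which compact mitotic chromosomes, and Smc5 and Smc6 form a complex used in DNA repair and replication. Smc1b takes the place of Smc1a in meiotic cohesin of germ cells. SMCHD1 is a non-canonical member that shares the hinge domain but carries an ATPase of the GHKL type, related to that of HSP90 and MORC proteins, and it acts on the inactive X chromosome and on imprinted and clustered genes.

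A difference in a motif of the ATPase can be seen in the reference sequences. The P-loop or Walker A motif is the loop that binds ATP in canonical SMC proteins. It was searched as G-x-x-G-x-G-K-S/T, with x any residue, which does not cover every form of the motif. The search used the longest open reading frame of each gene in the Gencode M21 transcripts. This pattern was found once in each of the 7 canonical genes and 0 times in the 2007 codons of Smchd1. The search says only that the letters of the pattern are absent from that reading frame. The coding bases of the motif are shown in capitals, 5′ to 3′ in the sense of the gene, with 9 bases before and after in lower case, because they mark which members belong to the canonical class. They are the GRCm38 reference and not the FVB/N sequence.
Smc1a: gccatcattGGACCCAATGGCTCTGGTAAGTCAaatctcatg
Smc1b: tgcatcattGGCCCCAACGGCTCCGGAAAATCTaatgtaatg
Smc2: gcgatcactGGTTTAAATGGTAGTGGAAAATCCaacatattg
Smc3: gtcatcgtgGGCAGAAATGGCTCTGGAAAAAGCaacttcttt
Smc4: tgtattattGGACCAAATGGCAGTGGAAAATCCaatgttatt
Smc5: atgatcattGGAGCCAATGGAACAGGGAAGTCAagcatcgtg
Smc6: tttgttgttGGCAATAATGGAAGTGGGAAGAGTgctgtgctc

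In 4 genes the motif begins at codon 32 (Smc1a, Smc1b, Smc2 and Smc3), while in Smc5 it begins at codon 80, in Smc6 at codon 82 and in Smc4 at codon 111. It lies in 1 exon of Smc2 (chr4:52440349-52440372, plus strand, exon 2), Smc3 (chr19:53613817-53613840, plus strand, exon 3), Smc4 (chr3:69007947-69007970, plus strand, exon 4) and Smc5 (chr19:23268793-23268816, minus strand, exon 2). In Smc1a it is split by the first intron (chrX:152016625-152022753, plus strand, exons 1 and 2). The motif of Smc1b also falls across its first 2 exons (chr15:85129852-85131844, minus strand, exons 1 and 2), and that of Smc6 falls across exons 3 and 4 (chr12:11274099-11276270, plus strand). Smchd1 itself lies on chromosome 17 from 71344489 to 71475343 on the minus strand, and Smc1a is the only member on the X chromosome.

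Library sizes ranged from 2741820 to 7736498 counts per sample. Levels are given as CPM, the counts of a gene per 1e+06 counts of the library scaled by TMM, and 3 counts, taken as the floor, are 0.399 to 1.13 CPM depending on the sample. The weighted limma-voom test covered the 13305 genes that passed the filter on low counts, of which 144 (1.08%) had an adjusted p under 0.25 and 12 (0.0902%) had one under 0.05. Of the 8 family members 7 passed the filter, and Smc1b did not. NSC markers were present in every sample, with 8310 to 13546 CPM summed over 9 genes, and 5 microglia markers summed to at most 2.06 CPM. Both sequencing batches, made with different releases of the library kits, held both genotypes. Batch 1 alone was used for WT replicate 2 with Smchd1-null replicates 1 and 2. Batch 2 alone was used for WT replicates 3 and 4 together with Smchd1-null replicate 3, and WT replicate 1 was run in both.

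Smchd1, the mutated gene, was the only member called as different between the genotypes, and the paper treats its fall as a positive control. Its levels were 66.9, 56.4, 74.7 and 55.7 CPM in WT replicates 1 to 4, and 17.3, 12.8 and 18.4 CPM in Smchd1-null replicates 1 to 3. All null samples lay below all WT samples, by a wide gap. Its log2 fold change, Smchd1-null over WT, was -2.15 (SE 0.18, 95% interval -2.53 to -1.76, adjusted p = 1.10e-04, limma), the smallest p-value of the 13305 genes. It therefore fell, and among the family it was the 1 member called at 0.05 and at 0.25. In bulk samples, fewer cells that express a gene and less RNA per cell cannot be told apart.

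Transcripts of Smchd1 were not absent in the null samples, which held 46, 96 and 85 counts. As a share of the counts of the 8 genes, Smchd1 took 5.97%, 5.68%, 7.85% and 6.63% in WT replicates 1 to 4 and 1.77%, 1.32% and 1.95% in Smchd1-null replicates 1 to 3. The 2 ranges of shares lie far apart. No exon of an annotated gene overlaps an exon of Smchd1, but 4 genes lie wholly in its introns. The one with the most counts, Gm4707, is annotated as protein coding on the same strand from 71458327 to 71459918. It had 15, 30, 28 and 37 counts in WT replicates 1 to 4 and 20, 110 and 26 counts in Smchd1-null replicates 1 to 3, so most of its null counts come from replicate 2, the deepest library. Where the reads of Smchd1 ended along the transcript was not analysed here.

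**Figure D1:**
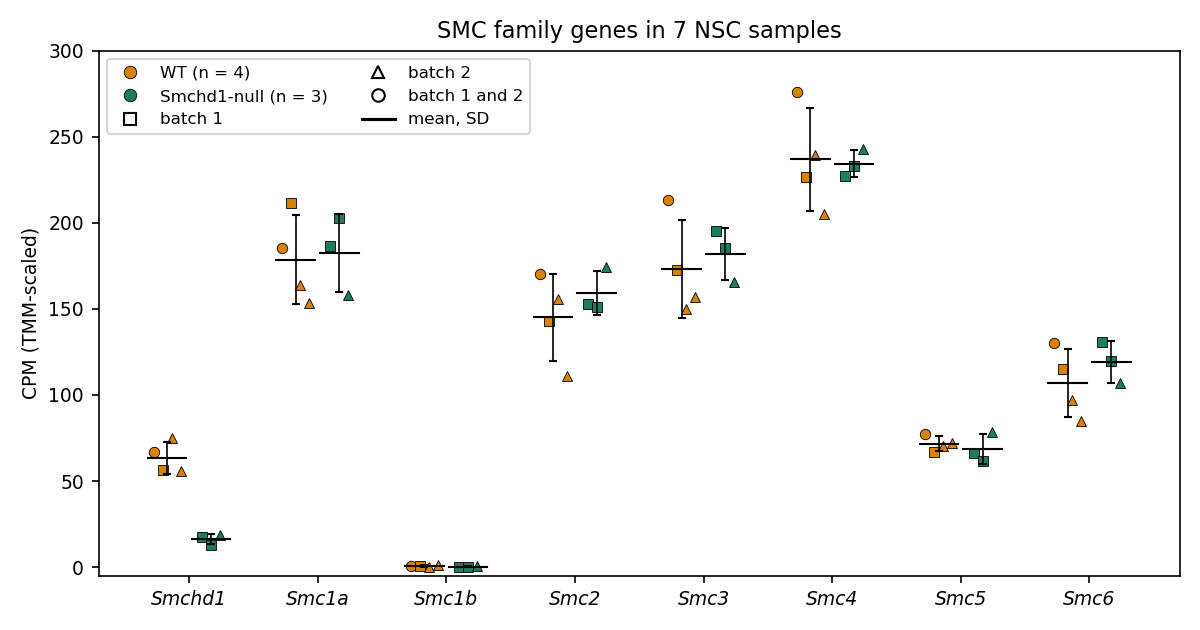
CPM of each SMC family gene (y axis) in each of the 7 samples, with WT in orange and Smchd1-null in green and the batch given by the symbol; long bars are means and error bars are SD. Smchd1 is the only gene whose groups separate, from 55.7 to 74.7 CPM in WT and from 12.8 to 18.4 CPM in Smchd1-null, and Smc1b lies near 0 in every sample.

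The cohesin pair was found at nearly the same level in both genotypes. Smc1a had 185, 212, 164 and 153 CPM in WT replicates 1 to 4 and 187, 203 and 158 CPM in Smchd1-null replicates 1 to 3. Its ranges overlap almost entirely, and the log2 fold change was 0.09 (95% interval -0.19 to 0.36, adjusted p = 0.765, limma). Smc3 had 213, 173, 150 and 157 CPM in WT and 195, 185 and 165 CPM in Smchd1-null samples. All 3 null values fall inside the WT range, and the log2 fold change was 0.11 (95% interval -0.18 to 0.39, adjusted p = 0.719, limma). On the linear scale the intervals of these 2 genes run from 0.879 to 1.29 times WT for Smc1a and from 0.884 to 1.31 times WT for Smc3.

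Smc1a, the X-linked member, had a sign that was not stable. Within batch 1, with a single WT sample, its mean log-CPM differed by -0.12 (Smchd1-null minus WT), and within batch 2, with a single null sample, by -0.01, opposite to the fitted value over all samples. Its 2 highest samples, WT replicate 2 and Smchd1-null replicate 2, were both sequenced in batch 1 only. With the batch as a covariate, its log2 fold change was -0.09 (adjusted p = 0.857, limma). Xist, the RNA of the inactive X chromosome, had at most 2 counts in any sample, and the Y-linked genes Ddx3y, Uty, Kdm5d and Eif2s3y together had 140 to 206 CPM in every sample. Y-linked transcripts were thus present, and the RNA of an inactive X nearly absent, in both genotypes. The ratio of Smc1a to Smc3 in CPM ranged from 0.869 to 1.22 in WT and from 0.954 to 1.10 in Smchd1-null samples, so the WT range encloses that of the null samples.

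The condensin pair also had overlapping groups, with no call for either gene. Smc4 had 276, 227, 239 and 205 CPM in WT replicates 1 to 4 and 227, 233 and 243 CPM in Smchd1-null replicates 1 to 3. The null samples sit together in the middle of the WT range, with a coefficient of variation of 3.40% against 12.6% in WT. The log2 fold change of Smc4 was -0.06 (95% interval -0.31 to 0.18, adjusted p = 0.815, limma). Smc2 had 170, 143, 156 and 111 CPM in WT and 153, 151 and 174 CPM in Smchd1-null samples. Smchd1-null replicate 3 was above and WT replicate 4 below all others, and the log2 fold change was 0.04 (95% interval -0.24 to 0.32, adjusted p = 0.899, limma).

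Smc2 and Smc4, like the other members, were compared across samples without a background from other pairs of genes. The ratio of Smc2 to Smc4 in CPM was 0.542 to 0.652 in WT and 0.648 to 0.717 in Smchd1-null samples, 2 ranges that overlap only slightly. As a measure of likeness, the root mean square difference of log-CPM was taken over the 7 samples with each gene centred on its mean. By this measure Smc3 and Smc6 were the closest pair of the family (0.10), followed by Smc2 and Smc4 (0.12) and by Smc4 and Smc5 (0.12). Smc1a and Smc3 had 0.15, and Smc5 and Smc6 had 0.26, the largest value among the 6 tested canonical genes. The differences of Smchd1 from the others were 0.94 to 1.08.

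The subunits of the DNA repair complex were the members with the largest fitted values apart from Smchd1, in opposite directions, and neither passed the test. Smc6 had 130, 115, 97.3 and 85.1 CPM in WT replicates 1 to 4 and 131, 120 and 107 CPM in Smchd1-null replicates 1 to 3. Only Smchd1-null replicate 1 exceeded the highest WT sample. The log2 fold change of Smc6 was 0.18 (95% interval -0.12 to 0.48, adjusted p = 0.562, limma). Smc5 had 77.4, 66.9, 70.5 and 71.9 CPM in WT and 66.1, 61.4 and 78.4 CPM in Smchd1-null samples. Its WT samples were the most even of the family, with a coefficient of variation of 6.11%, and the null samples spread on both sides of them. The log2 fold change was -0.14 (95% interval -0.41 to 0.14, adjusted p = 0.631, limma).

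Smc1b was close to the limit of detection. It had 3, 2, 0 and 7 counts in WT replicates 1 to 4 and 0, 1 and 2 counts in Smchd1-null replicates 1 to 3. With only 1 sample above the floor of 3 counts, no fold change is given and no test was made. None of 8 meiotic germ cell markers passed the filter either, and their CPM summed to 2.89 to 7.57 in WT and 3.73 to 4.55 in Smchd1-null samples. Rec8, the kleisin of meiotic cohesin, had 3, 0, 6 and 27 counts in WT and 1, 2 and 2 counts in Smchd1-null samples, so most of its counts come from WT replicate 4. Rad21l, another meiotic kleisin, had 1 count in WT and 3 counts in Smchd1-null samples in total. Stag3, the meiotic cohesin subunit that did pass the filter, had 69 counts in the 4 WT and 69 in the 3 Smchd1-null samples. Scaled by depth, its means were 3.85 CPM in WT and 4.89 CPM in Smchd1-null samples, with overlapping ranges. Its log2 fold change was 0.14 (adjusted p = 0.862, limma).

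Among the 6 canonical genes that passed the filter, 0 were called at 0.25 or at 0.05, where 1.08% and 0.0902% of all tested genes were called. None of the 6 had groups without overlap in log-CPM, which 5.53% of tested genes had. All 6 had an unadjusted p above 0.05, the smallest being 0.225 (Smc6, limma). The exact permutation test over 35 assignments of the samples, two-sided, gave p from 0.371 (Smc6) to 0.971 (Smc4). For Smchd1 it gave 0.0286, the smallest p it can give. Their log2 fold changes had a median of 0.07 and ran from -0.14 to 0.18, with 2 of 6 below 0, beside a median of 0.005 over all tested genes. Within the batches, the differences in mean log-CPM of Smc2 to Smc6 lay between -0.07 and 0.14 in batch 1 and between 0.11 and 0.40 in batch 2, the highest being Smc2, and those of Smchd1 were -1.90 and -1.79. These p-values do not show that the canonical genes act alike in both genotypes. The intervals leave room for changes between 0.751 times WT (lower bound of Smc5) and 1.39 times WT (upper bound of Smc6).

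**Figure D2:**
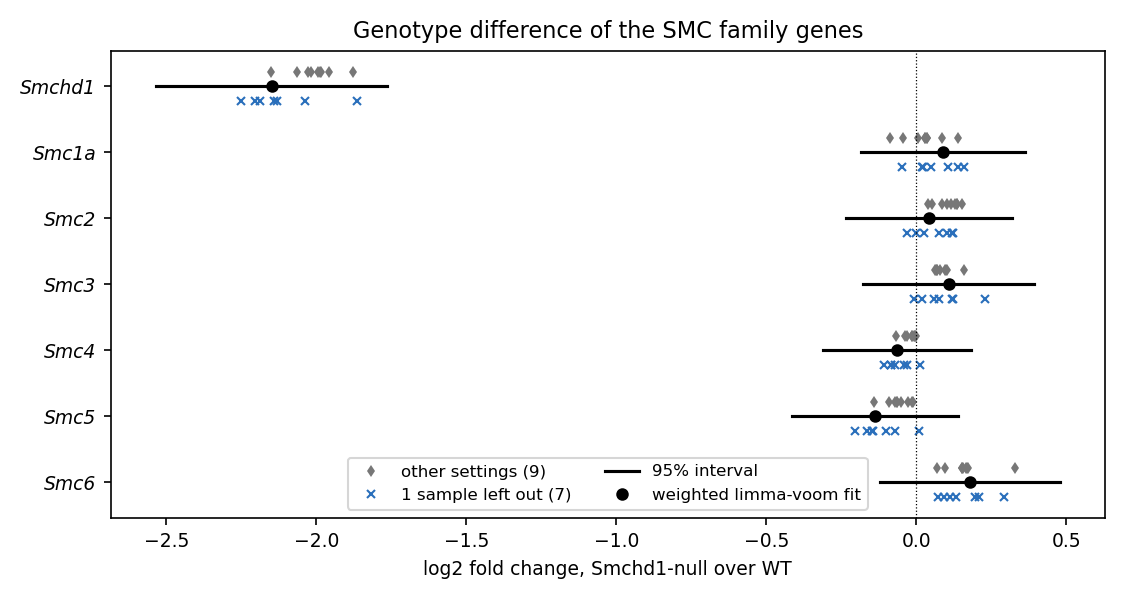
Log2 fold change, Smchd1-null over WT (x axis), of the 7 tested SMC family genes; black points and bars are the weighted limma-voom fit with its 95% interval, grey diamonds are 9 other settings and blue crosses are fits that leave out 1 sample. Smchd1 lies between -2.25 and -1.86 in all of them, and every value of the 6 canonical genes lies between -0.20 and 0.33.

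Levels of different members were compared as CPM and as CPM per kilobase (CPM/kb). The paper found gene length only weakly associated with expression in these unfragmented reads, so division by length can itself change the order. In CPM, the WT samples of Smchd1 (mean 63.4, 55.7 to 74.7) and Smc5 (mean 71.7, 66.9 to 77.4) overlapped. Smc6 (mean 107, 85.1 to 130) was above Smc5. With the deposited gene lengths, the WT means were 45.5 CPM/kb for Smc4, 31.3 for Smc3, 31.0 for Smc1a, 26.5 for Smc2, 10.6 for Smc5, 8.55 for Smc6, 3.18 for Smchd1 and 0.147 for Smc1b. Neighbours in this order whose WT samples overlapped were Smc3 with Smc1a, Smc1a with Smc2, and Smc5 with Smc6, while Smc4 was above all others in every WT sample (39.4 to 53.0 CPM/kb against at most 38.5 for Smc3). The order in the Smchd1-null samples was the same on this scale, with 45.0 CPM/kb for Smc4 and 0.808 for Smchd1.

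The deposited length joins all exons of a gene, and for 2 members it is far above the length of the coding transcript. It is 19982 bases for Smchd1, whose longest coding transcript has 7052 bases, and 12502 bases for Smc6, whose coding transcript has 5603 bases. Per kilobase of the coding transcript, the WT mean was 8.997 CPM/kb for Smchd1 and 19.1 CPM/kb for Smc6. On this scale Smc6 stood above Smc5 (12.6 CPM/kb) and Smc1a (38.1 CPM/kb) above Smc3 (35.7 CPM/kb), so the order of these pairs depends on the length used. Smc4 remained first with 54.9 CPM/kb and Smchd1 remained the lowest of the 7 tested members on either scale, in both genotypes.

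Long genes had lower fold changes than short genes in these libraries, and this touches the members. The median log2 fold change was 0.20 over 3001 tested genes of at most 2000 bases, -0.04 over 2867 genes of 4000 to 6000 bases and -0.15 over 2334 genes of more than 8000 bases. Smc1a, Smc2, Smc3 and Smc4 lie inside the middle 50% of genes of their length class (-0.22 to 0.14), and so does Smc5 in its own (-0.26 to 0.11). Smc6 lies above the upper quartile of its class (0.01). After a trend with the deposited length was taken out of every library, the log2 fold change of Smc6 was 0.33, with no adjusted p under 0.25. This was the highest value of any canonical gene in any setting. Smchd1 had -1.88 in the same fit (adjusted p = 4.41e-04, limma). The lengths used were 12502 bases for Smc6 and 19982 for Smchd1, far above their coding transcripts of 5603 and 7052 bases. A fit with transcript lengths was not made.

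**Figure D3:**
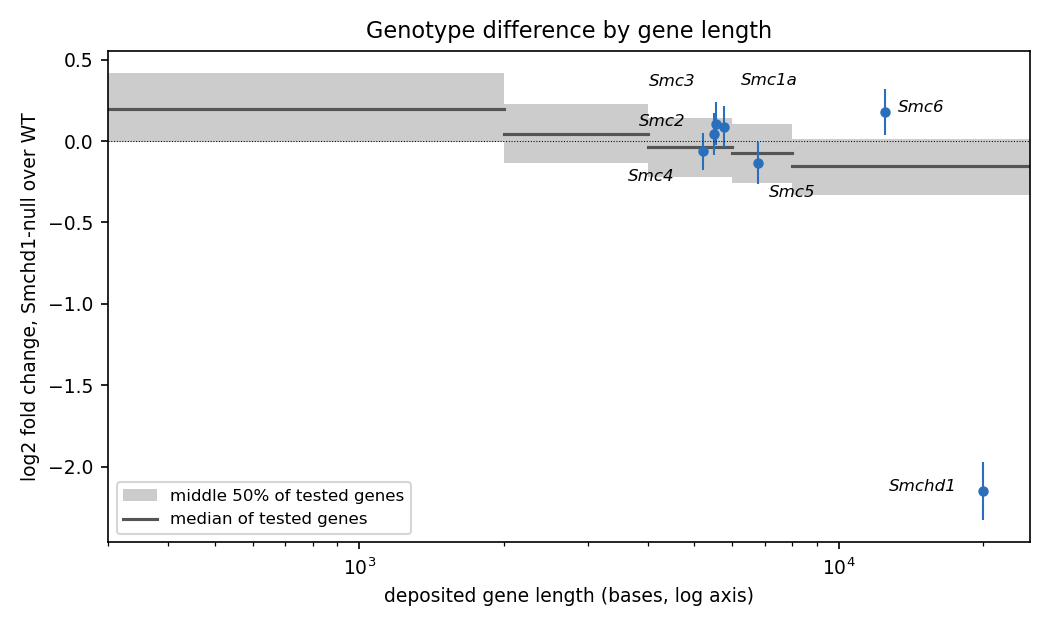
Log2 fold change, Smchd1-null over WT (y axis), against the deposited gene length in bases (log axis); grey bands and lines are the middle 50% and the median of tested genes in 5 length classes, and blue points are SMC family genes with the SE as bar. Smc6 (0.18) lies above the band of genes over 8000 bases and Smchd1 (-2.15) far below it, and the other 5 genes lie within the bands.

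WT replicate 4 was the lowest WT sample for 4 of the 6 tested canonical genes, and WT replicate 1 was the highest for 5 of 6. Summed over the 7 canonical genes, the WT replicates 1 to 4 had 1054, 937, 878 and 785 CPM and the Smchd1-null replicates 1 to 3 had 959, 953 and 926 CPM. The null samples fall inside the WT range, with an SD of 17.6 CPM against 113 CPM in WT.

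The canonical genes were set beside 22 proliferation markers such as Mki67, Top2a and Cdk1, since condensin and cohesin are used by dividing cells. The markers summed to 3532, 3552, 3395 and 2420 CPM in WT replicates 1 to 4 and to 3704, 3472 and 3711 CPM in Smchd1-null replicates 1 to 3. WT replicate 4 was the lowest of the 7 samples on both sums, and it had more counts of 4 astrocyte markers (113 CPM, against 28.6 to 37.1 CPM in the other WT samples) and of 5 neuron markers (70.0 CPM, against 28.3 to 36.6 CPM). All 22 proliferation markers passed the filter and 0 of 22 were called at 0.25, beside 1.08% of all tested genes, so this count says little. Their median log2 fold change was 0.15, beside 0.005 over all tested genes. Of the 22, 7 were below 0, beside 49.4% of all tested genes. The part of these markers in the level of the SMC genes was not tested. Without WT replicate 4, the log2 fold changes were 0.05 for Smc1a, -0.03 for Smc2, 0.07 for Smc3, -0.11 for Smc4, -0.14 for Smc5 and 0.11 for Smc6, and none was called at 0.25.

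**Figure D4:**
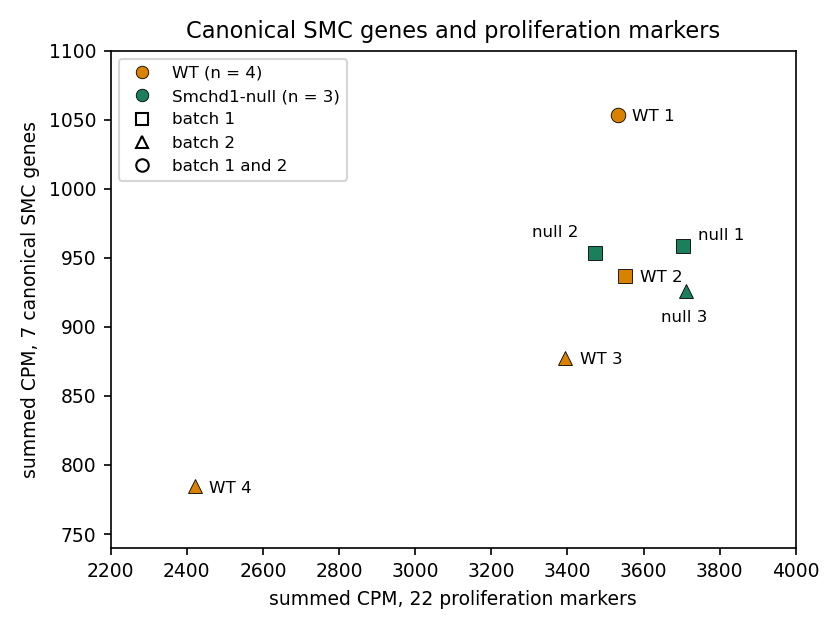
Summed CPM of the 7 canonical SMC genes (y axis) against summed CPM of 22 proliferation markers (x axis), 1 point for each of the 7 samples, with WT in orange, Smchd1-null in green and the batch given by the symbol; the axes do not start at 0. WT replicate 4 is lowest on both axes (785 and 2420 CPM), and the Smchd1-null samples sit together between 926 and 959 CPM on the y axis.

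The genes whose pattern was most like that of Smchd1 were sought over all tested genes. By the smallest root mean square difference of centred log-CPM over the 7 samples they were Mir124-2hg (0.34), 1810026B05Rik (0.45) and Gm10544 (0.45). Mir124-2hg, a host transcript of the neuronal microRNA miR-124, had 10.99 to 16.8 CPM in WT and 3.06 to 5.63 CPM in Smchd1-null samples. The others are low, with at most 4.64 and 4.97 CPM in any sample. The 6 tested canonical SMC genes are not among them, which their differences of 0.94 to 1.08 from Smchd1 had already settled.

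The partners of the SMC proteins were examined as 5 lists of 28 genes in all, of which 23 passed the filter. None of the 23 was called at 0.25 (limma), beside 1.08% of all tested genes, and 3 had an unadjusted p under 0.05, as 13.9% of all tested genes had, so this count is near the background. Their median log2 fold change was -0.04, and the values ran from -0.53 to 0.30. Of the 23, 16 were below 0, beside 49.4% of all tested genes. All of the 23 but Nsmce1, Nsmce2 and Nbn are longer than 4000 bases, however. Below 0 were 55.1% of tested genes of 4000 to 6000 bases and 73.7% of those over 8000 bases. The value of 49.4% is therefore a low background for this list.

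Cohesin is closed by the kleisin RAD21 and bound by a STAG subunit. Of 6 cohesin genes 4 were tested. Stag2 had 143, 111, 149 and 140 CPM in WT replicates 1 to 4 and 115, 107 and 129 CPM in Smchd1-null replicates 1 to 3, with a log2 fold change of -0.28 (95% interval -0.56 to -0.01, adjusted p = 0.347, limma). The low WT value is that of replicate 2, the WT sample run in batch 1 alone. Rad21, at 360 ± 31.7 CPM (SD, n = 4, WT) and 352 ± 38.3 CPM (SD, n = 3, Smchd1-null), had -0.11 (adjusted p = 0.664, limma).

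All 6 non-SMC condensin subunits were tested. Ncaph2, the kleisin of condensin II, had 80.0 ± 17.7 CPM (SD, n = 4, WT) and 89.3 ± 16.0 CPM (SD, n = 3, Smchd1-null), with a log2 fold change of 0.27 (adjusted p = 0.428, limma). Ncapg, a HEAT-repeat subunit of condensin I, had -0.32 (adjusted p = 0.677, limma) in the weighted fit although its mean CPM was nearly equal, at 11.2 in WT and 11.5 in Smchd1-null samples. Its value was 0.05 without sample weights. The median of the condensin list was -0.05.

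Of 7 genes for the non-SMC subunits and loaders of the SMC5/6 complex 6 were tested, with a median of 0.01. Slf1, which helps to bring the complex to damaged DNA, had 28.6, 19.5, 20.97 and 14.6 CPM in WT replicates 1 to 4 and 17.3, 12.4 and 22.1 CPM in Smchd1-null replicates 1 to 3. The groups overlap, and the log2 fold change was -0.52 (95% interval -1.03 to -0.02, adjusted p = 0.348, limma). Nsmce1, a RING-domain subunit, had 114 ± 27.7 CPM (SD, n = 4, WT) and 129 ± 21.02 CPM (SD, n = 3, Smchd1-null), a log2 fold change of 0.28 (adjusted p = 0.412, limma).

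RAD50 is an SMC-like ATPase of the MRE11 complex, which binds broken DNA ends. Rad50 had 36.1, 22.4, 28.8 and 25.9 CPM in WT replicates 1 to 4 and 20.6, 18.1 and 27.3 CPM in Smchd1-null replicates 1 to 3. Smchd1-null replicate 3 lies within the WT range, and the other null samples lie below all WT samples. Its log2 fold change of -0.53 (95% interval -0.94 to -0.12, adjusted p = 0.3001, limma) was the lowest of the 23 partners. Mre11a had -0.10 (adjusted p = 0.852, limma). Of the MORC family, which shares the GHKL ATPase with SMCHD1, and Lrif1, whose protein binds SMCHD1, 4 of 6 genes were tested. Morc2a had -0.24 (adjusted p = 0.543, limma) and Morc4 had 0.22 (adjusted p = 0.713, limma).

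**Figure D5:**
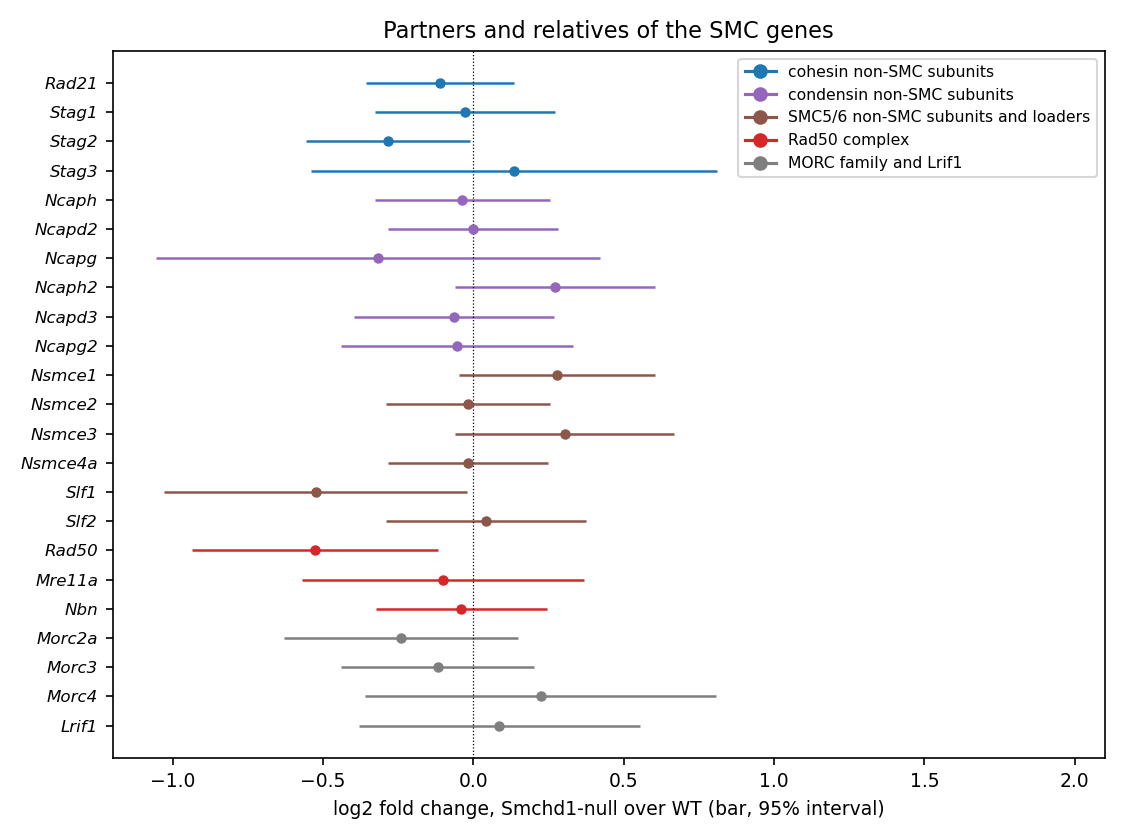
Log2 fold change, Smchd1-null over WT (x axis), of 23 partners and relatives of the SMC genes, with the 95% interval as bar and the list as colour. Values run from -0.53 (Rad50) to 0.30 (Nsmce3), and in this weighted fit the intervals of Stag2, Slf1 and Rad50 exclude 0 before adjustment.

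The values and calls of 5 partners depended on single libraries, and the values also on the sample weights and on the batch. In the reported fit Smchd1-null replicates 1 and 2 had the highest weights (2.03 and 1.83) and WT replicate 4 the lowest (0.447). Without Smchd1-null replicate 2, the log2 fold changes were -0.09 for Slf1, -0.24 for Rad50, -0.18 for Stag2, 0.10 for Ncaph2 and 0.15 for Nsmce1, all nearer to 0. Without sample weights they were -0.30 for Slf1, -0.37 for Rad50, -0.21 for Stag2, 0.16 for Ncaph2 and 0.20 for Nsmce1, also nearer to 0. With the batch as a covariate they were -0.26 for Slf1, -0.23 for Rad50 and -0.10 for Stag2, and those of Ncaph2 (-0.03) and Nsmce1 (-0.005) turned below 0. Without WT replicate 2, 5 of 23 partners were called at 0.25, Nsmce1 and Ncaph2 as higher and Stag2, Slf1 and Rad50 as lower in Smchd1-null samples, where 22.7% of all tested genes were called. Without Smchd1-null replicate 3, the same 5 genes were called in the same directions, where 23.5% of all tested genes were called. In that fit all null samples left were run in batch 1 alone, while WT samples of batch 2 remained. Without WT replicate 2, no WT sample run in batch 1 alone remained. Genotype and batch are thus partly aligned in both fits and cannot be fully told apart there. The share of partners called is thus near the share of all genes in both fits. Among the proliferation markers, 10 of 22 were called without WT replicate 2, a share above the 22.7% of all tested genes. Of these 10, 8 were higher and 2 lower in Smchd1-null samples. Without Smchd1-null replicate 3, 5 of 22 were called, 3 as higher and 2 as lower, near the 23.5% of all tested genes. No canonical SMC gene was called in either fit, and over 16 settings other than the reported one their smallest adjusted p was 0.382 (Smc5 without Smchd1-null replicate 3, limma).

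Reads shared with copies or neighbours can change a count, so these were listed. No transcript of a member aligned to that of another member, and 2 annotated pseudogenes aligned to Smc3, over 109 and 597 bases, with 16 and 4 counts in all 7 samples beside 5813 counts of Smc3. No exon of a member overlapped that of another gene. Smc2os, annotated as antisense to Smc2 and sharing no exon with it, had 51 counts beside 4933 counts of Smc2. Gm10923, a processed pseudogene in an intron of Smc1b on the opposite strand, had 57 counts, of which 33 were in Smchd1-null replicate 2, more than the 15 counts of Smc1b itself.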

How the data were processed

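Direct-cDNA nanopore libraries of 7 NSC samples were analysed. The deposited values are whole-number counts per gene, not normalised, with gene lengths. The authors base-called reads with Guppy, aligned them to mm10 with minimap2 (version 2.17) and counted primary alignments with featureCounts in long-read mode on Gencode M23 (GRCm38). Runs of a sample from both batches were summed, and counting was not stated to use strand. Symbols, positions and transcripts came from Gencode M21 (GRCm38), where 55154 of 55335 identifiers matched. RefSeq protein sequences were not used here.

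As in the study's methods, genes were filtered with filterByExpr, scaled by TMM (edgeR 4.0.16) and fitted with limma (3.58.1) voomWithQualityWeights with genotype as the only term, two-sided, with Benjamini-Hochberg adjustment over 13305 genes. Library sizes were recomputed here on the filtered genes. Log-CPM used a prior count of 2, and the length trend was a lowess with span 0.3. Alternatives used DESeq2 (1.42.0) and the settings given in the closing section. The pipeline was tested on simulated data. Groups came from sample titles. No pair of samples of a group was alike within sampling noise (chi-square over its degrees of freedom 2.65 or more).

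The members and gene lists were chosen with earlier results of these data known. Named were the 8 members, the 2 partners of each list with the smallest p and any called at 0.25, the 3 genes most like Smchd1, and overlapping or copied genes. Gm4707, Gm10923, Rec8, Rad21l, Stag3 and Nsmce3 were also named, after their values were seen.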

Additional observations from a re-analysis of the deposited data

Results flagged for a closer look

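In 25 results, the gap of 1 WT sample to the other 3 was set against the whole WT range. In 2 of them, both in WT replicate 4, it passed Dixon's 95% limit, which chance passes in about 1 in 20 groups. The proliferation markers summed to 2420 CPM in this sample and to 3395 to 3552 CPM in the other WT samples, a gap of 0.861 of the range. Its astrocyte markers summed to 113 CPM, against 28.6 to 37.1 CPM, a gap of 0.899 of the range. No SMC family gene passed the limit, and the 3 Smchd1-null samples are too few for this comparison.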

How the results depend on the processing

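Smchd1 kept its direction and its side of 0.05 in all 17 alternatives, and no canonical SMC gene had an adjusted p under 0.25 in any of the 16 fits, while directions near 0 turned. The numbers of genes under 0.25 and 0.05 were 8 and 1 by edgeR, 32 and 17 by DESeq2, 10 and 1 without sample weights, 22 and 2 over all genes with a count, 74 and 19 with the batch covariate, 74 and 9 with the length trend removed, and 167 and 44 with the length trend removed and a replicate block, beside 144 and 12. Leaving out 1 sample gave 1 (without Smchd1-null replicate 1) to 3153 (without Smchd1-null replicate 3) at 0.25 and 1 to 161 at 0.05. It gave 0 to 1 cohesin, 0 to 1 condensin, 0 to 2 SMC5/6 and 0 to 1 Rad50 complex genes and 0 to 10 proliferation markers. The null samples left without Smchd1-null replicate 3 were all run in batch 1 alone, so genotype and batch are partly aligned in that fit.

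Log2 fold changes of canonical genes with 1 sample left out ran from -0.046 (without Smchd1-null replicate 2) to 0.158 for Smc1a, from -0.032 (without WT replicate 4) to 0.121 for Smc2, with -0.00027 without Smchd1-null replicate 3, from -0.0065 (without WT replicate 3) to 0.230 for Smc3, from -0.108 to 0.011 (without WT replicate 1) for Smc4 and from -0.205 to 0.0095 (without Smchd1-null replicate 2) for Smc5. Those of Smc6 ran from 0.072 to 0.292. With the batch covariate Smc1a had -0.089, Rad21 0.039, Ncaph2 -0.030, Ncapg 0.416, Nsmce1 -0.0048 and Mre11a 0.071. Ncapg had 0.033 by edgeR, 0.031 by DESeq2 and 0.046 without sample weights, and Mre11a had 0.044 by both tools and 0.038 without sample weights and over all genes. With 1 sample left out, Ncapg ran from -0.585 to 0.293 and Mre11a from -0.209 to 0.217, with 0.110 without WT replicate 1. The causes were not tested.

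The replicate block gave 129 and 23 genes under 0.25 and 0.05, with 74 of the 129 among the 144, and Smc1a had -0.045 and Ncapg 0.149. With the length trend removed and a replicate block, Rad21 had 0.0066, Ncapg 0.163 and Nsmce1 -0.040. Deviations of same-numbered samples correlated with -0.04, 0.36 and 0.09 across genes, so the numbers were not taken to pair the samples.

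Depth limits Smc1b, which has at most 7 counts in a library, where 3 counts are 0.399 to 1.13 CPM, and with 4 and 3 samples the canonical genes are bounded only by their intervals.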
